A study of Mus musculus with 18 samples.

Results

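The NF-κB system was followed through neutrophil differentiation by the transcripts of its 5 subunit genes (*Nfkb1*, *Nfkb2*, *Rela*, *Relb*, *Rel*) and of 5 genes that restrain or modify it (*Nfkbia*, *Nfkbib*, *Nfkbie*, *Nfkbiz*, *Tnfaip3*). These 10 genes were chosen by symbol from a table of 34896 genes, in which each symbol had 1 row. RNA-seq covered granulocyte-monocyte progenitors (GMPs), pre-neutrophils (preNeu) and mature neutrophils (matNeu), with 3 libraries per cell type, all wild type. ChIP-seq, which maps DNA bound by a protein or carrying a histone mark, gave 1 list of enriched regions (peaks) per library for CHD4 in WT GMPs, CHD4 in *Gfi1*-/- GMPs, and H3K4me2 in WT GMP, preNeu and matNeu cells. All cells came from the bone marrow of C57BL/6 mice aged 6 to 12 weeks, and the *Gfi1* deletion was carried by the second CHD4 library alone. GMP, preNeu and matNeu cells had been sorted by surface markers, and the paper describes pooling the marrow of several long bones for the RNA of GMPs. CHD4 is the ATPase of the NuRD chromatin remodelling complex, GFI1 is a transcriptional repressor required for neutrophil formation, and H3K4me2 marks promoters and enhancers. Peak lists do not show whether *Gfi1* was deleted, and the genotype is that of the labels.

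The labels name the cell type in a pair of fields that disagree for 13 of the 18 samples of the series, among them all RNA-seq samples, and the titles were followed. Some samples other than RNA-seq disagreed too. RNA markers cannot check a peak list, so the cell type of each list rests on its title alone. The marker genes in the RNA-seq libraries went with the titles. *Cd34*, a progenitor surface protein, averaged 470 ± 39.0 TPM (SD, n = 3) in GMP, 2.21 ± 1.02 in preNeu and 1.92 ± 0.402 in matNeu. *Ltf*, a protein of secondary granules, averaged 6.13 ± 1.86, 25388 ± 1952 and 467 ± 96.8 TPM in the same order, and *Cxcr2*, the chemokine receptor of mature neutrophils, 9.23 ± 2.30, 76.4 ± 15.1 and 3468 ± 478 TPM. TPM is a transcript level corrected for transcript length that sums to 1000000 in each library, so levels of different genes can be compared. Between 10754 and 12256 genes reached 1 TPM in a library, and the 10 most abundant genes took 9.15% to 9.78% of TPM in GMP, 24.1% to 28.3% in preNeu and 12.7% to 15.9% in matNeu. Transcripts of other lineages were also present. The summed level of 4 eosinophil and basophil markers ran from 938 to 1182 TPM in GMP, 90.3 to 141 in preNeu and 33.6 to 50.0 in matNeu, and that of 6 monocyte and macrophage markers from 150 to 197, 73.9 to 86.8 and 86.3 to 119. Of 4 T and NK cell markers, whose sum ran from 458 to 610 TPM in GMP, 216 to 250 in preNeu and 1.93 to 4.32 in matNeu, *Nkg7* gave most and the other 3 averaged under 1 TPM in each cell type, with *Cd3e* at 0 in GMP and *Trac* at 0 in preNeu and matNeu. *Epx* of the eosinophil markers was at 0 in matNeu. The B cell markers *Cd79a*, *Cd79b* and *Ms4a1* summed to 78.9 to 94.5 TPM in GMP, 25.1 to 38.2 in preNeu and 51.9 to 103 in matNeu, so that they were higher in every matNeu than in every preNeu library, as were most members. *Cd79a* averaged 0.27 ± 0.306, 6.98 ± 1.47 and 22.7 ± 9.13 TPM in this order (SD, n = 3). *Ms4a1* also rose, at 0.489 ± 0.0589, 2.4 ± 0.387 and 12 ± 3.85 TPM. *Cd79b*, which gave most of the sum in GMP, was highest there, at 86.4 ± 8.01, 21.1 ± 5.49 and 35.4 ± 16 TPM. The sum of 4 erythroid markers stayed at or under 6.94 TPM in every library. Their part in the results was not tested.

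NF-κB factors are dimers of subunits that share a Rel homology domain. RelA, RelB and c-Rel carry activation domains, whereas the precursors p105 (*Nfkb1*) and p100 (*Nfkb2*) are processed to the DNA-binding partners p50 and p52 and in their unprocessed form also act as inhibitors. IκBα, IκBβ and IκBε (*Nfkbia*, *Nfkbib*, *Nfkbie*) hold dimers in the cytoplasm until IκB kinase marks them for degradation. IκBζ (*Nfkbiz*) works in the nucleus as a cofactor at a subset of target genes, and A20 (*Tnfaip3*) is a ubiquitin-editing enzyme that shuts down signalling upstream. Several of these genes are themselves textbook targets of NF-κB, which binds the κB element.

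Promoter sequences of 7 members were found in the RefSeq table (GRCm38), each from 250 bases before to 50 bases after a start site, and the windows that bear on the peaks described further on are shown here. Capitals mark letters that match the κB consensus, a motif of 10 bases searched on both strands with overlapping matches counted, and 1 unbroken run of capitals can hold a pair of overlapping matches. *Nfkbia* and *Tnfaip3* are shown because a CHD4 peak covered their start sites in WT GMPs, *Rel* because CHD4 lay just inside the gene, and *Nfkb2* because it held the most matches and no CHD4 peak. All are written 5′ to 3′ on the strand of the gene, which is minus for *Nfkbia* (chr12:55492598-55492897), *Tnfaip3* (chr10:19015361-19015660) and *Rel* (chr11:23770920-23771219), and plus for *Nfkb2* (chr19:46304487-46304786).
Nfkbia: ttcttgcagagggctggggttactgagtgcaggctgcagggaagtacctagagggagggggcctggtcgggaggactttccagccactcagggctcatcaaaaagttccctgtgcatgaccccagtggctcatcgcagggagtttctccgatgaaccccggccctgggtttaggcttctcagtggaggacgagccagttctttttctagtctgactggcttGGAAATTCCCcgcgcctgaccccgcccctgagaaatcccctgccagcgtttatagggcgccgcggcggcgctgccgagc
Tnfaip3: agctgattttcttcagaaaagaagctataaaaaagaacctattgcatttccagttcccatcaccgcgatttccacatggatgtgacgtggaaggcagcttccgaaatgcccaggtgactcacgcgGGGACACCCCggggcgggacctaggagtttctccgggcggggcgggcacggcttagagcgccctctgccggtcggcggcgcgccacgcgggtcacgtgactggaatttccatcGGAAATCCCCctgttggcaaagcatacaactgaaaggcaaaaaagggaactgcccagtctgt
Rel: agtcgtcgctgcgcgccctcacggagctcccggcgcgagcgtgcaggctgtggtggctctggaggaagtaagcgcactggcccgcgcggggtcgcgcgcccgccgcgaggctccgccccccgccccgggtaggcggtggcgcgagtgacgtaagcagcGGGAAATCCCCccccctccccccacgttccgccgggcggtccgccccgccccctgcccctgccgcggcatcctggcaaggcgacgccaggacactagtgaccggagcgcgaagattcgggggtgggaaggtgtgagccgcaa
Nfkb2: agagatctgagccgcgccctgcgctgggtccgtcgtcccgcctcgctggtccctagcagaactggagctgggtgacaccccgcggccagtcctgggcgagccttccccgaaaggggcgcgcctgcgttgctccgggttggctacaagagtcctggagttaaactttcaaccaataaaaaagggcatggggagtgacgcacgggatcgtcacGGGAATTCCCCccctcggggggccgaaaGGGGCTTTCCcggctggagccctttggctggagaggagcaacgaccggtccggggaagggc

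Matches to the κB consensus were found at 5 of the 7 members (71.4%, 95% Wilson interval 35.9% to 91.8%), beside 1388 of the 27025 genes in the promoter table (5.14%) and 546 of the 9333 genes that were both in it and tested for expression (5.85%). Read on the strand of the motif, *Nfkbia* held GGGAATTTCC, centred 24 bases before the start site. *Tnfaip3* held GGGACACCCC and GGGGATTTCC, 120 and 7 bases before it. *Rel* held the overlapping pair GGGAAATCCC and GGGGATTTCC, and *Nfkbie* held GGGGGATTCC, 101 bases before its start. *Nfkb2* held the overlapping pair GGGAATTCCC and GGGGAATTCC, and GGGGCTTTCC 6 bases before the start shown. At other start sites of *Nfkb2* the table also gave GGGACATTCC and GGGACTTTCC. Windows with at least 3 matches were found at 0.0629% of all genes. The windows of *Rela* and *Nfkbib* held none. These intervals cover counting error only, and a match describes letters, not occupancy.

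The question put to the RNA-seq data was how the level of each subunit and inhibitor transcript differed between the stages. All 10 members passed the filter of at least 1 TPM in at least 3 libraries, which left 13061 genes. Differences were tested with limma on log2(TPM + 1) and p-values were adjusted by Benjamini-Hochberg over all of these genes, so each log2 change is on the log2(TPM + 1) scale and understates the change of low genes. Of the 10 members, 4 were higher and 2 lower in preNeu than in GMP, where 14.7% of all tested genes were higher and 44.3% lower. Median-ratio scaling, which sets the libraries to equal medians of gene ratios, gave 7 and 2 members, beside 21.5% and 30.6% of genes, and upper-quartile scaling 7 and 1, beside 22.6% and 28.8%. In matNeu against preNeu, 7 were higher and 0 lower, beside 22.9% and 39.8% of tested genes. Both scalings gave 9 and 0, beside 30.8% and 33.3% of genes with median ratios and 31.1% and 33% with the upper quartile. In matNeu against GMP, 8 were higher and 2 lower, beside 22.8% and 54.1%. Both scalings gave 8 and 0 there, beside 33.7% and 42.5% with median ratios and 34.8% and 41.5% with the upper quartile. The median log2 change of the members was 0.36, 0.96 and 1.27 in these comparisons, and that of all tested genes -0.52, -0.32 and -0.92. Median-ratio scaling moved the median of all genes to -0.16, -0.04 and -0.25, and scaling by the upper quartile moved it to -0.11, -0.03 and -0.18, so that changes are also given relative to these medians where it matters. The share of higher genes among all called genes was 25%, 36.5% and 29.6% without scaling, 41.3%, 48.0% and 44.2% with median ratios, and 43.9%, 48.5% and 45.6% with the upper quartile. TPM are shares of a library, and in bulk samples fewer cells of a type and less RNA per cell cannot be told apart. No label says that the libraries of a cell type came from separate mice, so p-values measure the spread between these samples.

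**Figure D1:**
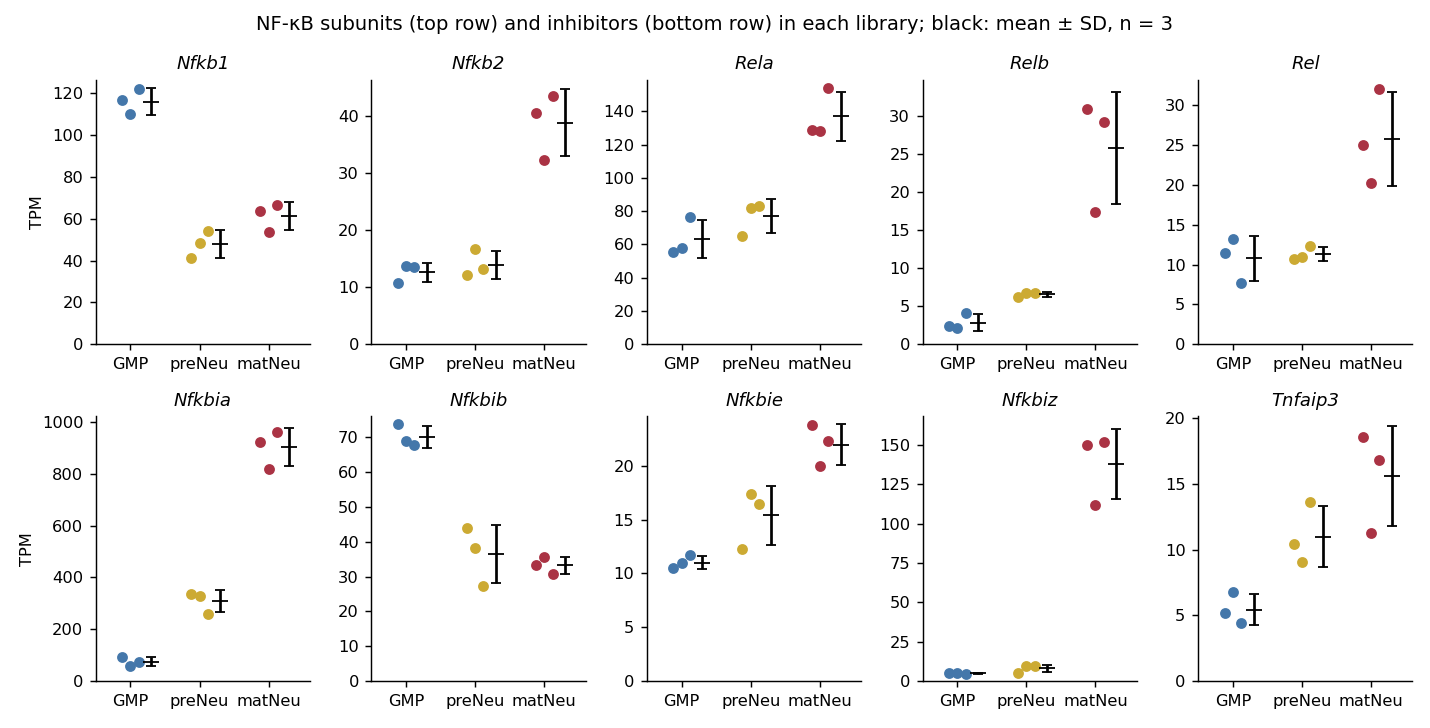
Level of each of the 10 genes in TPM (vertical axes, each from 0) in the 3 libraries of GMP, preNeu and matNeu, with the subunits in the top row and the inhibitors in the bottom row. Coloured points are libraries and black bars are mean ± SD (n = 3); *Nfkbiz* stood at 4.21 to 9.40 TPM in GMP and preNeu and at 112 to 152 TPM in matNeu.

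Among the activating subunits, *Rela*, which encodes the p65 subunit (ENSMUSG00000024927, chr19:5637483-5648130, plus strand), was the most abundant. It was measured at 55.7, 58.0 and 76.7 TPM in GMP, 65.1, 82.2 and 83.4 in preNeu, and 129, 128 and 154 in matNeu. Every matNeu library was above every other library, while GMP and preNeu overlapped. *Rela* rose by 0.83 ± 0.16 (log2, SE) from preNeu to matNeu (limma, adjusted p = 0.00112), whereas preNeu minus GMP gave 0.28 ± 0.16 (adjusted p = 0.169).

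*Relb*, the partner of p52 in the alternative pathway (ENSMUSG00000002983, chr7:19606217-19629438, minus strand), was the lowest subunit in GMP and rose at both steps. Its levels were 2.34, 2.11 and 4.07 TPM in GMP, 6.14, 6.71 and 6.77 in preNeu, and 30.9, 17.4 and 29.1 in matNeu, and no 2 cell types overlapped. The log2 change was 1.01 ± 0.29 from GMP to preNeu (limma, adjusted p = 0.0112) and 1.79 ± 0.29 from preNeu to matNeu (adjusted p = 0.000253). The table gives the row of *Relb* the transcript type of a retained intron, and the other 9 members that of a protein-coding transcript. *Rel*, which encodes c-Rel (ENSMUSG00000020275, chr11:23736847-23770970, minus strand), was measured at 11.5, 13.2 and 7.69 TPM in GMP, 10.7, 11 and 12.3 in preNeu, and 25, 20.3 and 32.0 in matNeu. GMP and preNeu overlapped, and the change from GMP to preNeu of 0.09 ± 0.24 did not pass the test (limma, adjusted p = 0.784). The rise from preNeu to matNeu was 1.10 ± 0.24 on the log2 scale (adjusted p = 0.00233).

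The precursor genes went in opposite directions from GMP to matNeu in TPM as deposited. *Nfkb1* (ENSMUSG00000028163, chr3:135584655-135691547, minus strand) was measured at 117, 110 and 122 TPM in GMP, 41.1, 48.3 and 54.3 in preNeu, and 63.9, 53.7 and 66.5 in matNeu. GMP lay above both later stages, which overlapped each other. The log2 change from GMP to preNeu was -1.27 ± 0.15 (limma, adjusted p = 3.61e-05), which is -0.75 relative to the median of all genes, and this call held under both scalings. From GMP to matNeu the change was -0.92 ± 0.15 (adjusted p = 0.000159), which is 0.01 above the median of all genes, and it became -0.09 (adjusted p = 0.493) and -0.01 (adjusted p = 0.922) under median-ratio and upper-quartile scaling. From preNeu to matNeu, *Nfkb1* changed by 0.35 ± 0.15 (limma, adjusted p = 0.0558), and the scalings gave 0.75 (adjusted p = 0.000311) and 0.77 (adjusted p = 0.000293). Without preNeu replicate 3 or matNeu replicate 2 it also passed (adjusted p = 0.0309 and 0.0303).

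*Nfkb2* (ENSMUSG00000025225, chr19:46304320-46312385, plus strand) was measured at 10.8, 13.7 and 13.5 TPM in GMP, 12.1, 16.7 and 13.1 in preNeu, and 40.4, 32.3 and 43.5 in matNeu. All matNeu libraries were above all others. The log2 change from preNeu to matNeu was 1.41 ± 0.20 (limma, adjusted p = 0.000111), and that from GMP to preNeu was 0.13 ± 0.20 (adjusted p = 0.618). Under median-ratio and upper-quartile scaling the difference between preNeu and GMP passed the test for *Nfkb2*, at 0.52 and 0.57, and for *Rela*, at 0.70 and 0.76.

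The composition of the subunit transcripts shifted accordingly, and shares within a library do not depend on the scaling. *Nfkb1* made up 59.3%, 55.7% and 54.6% of the summed TPM of the 5 subunits in the GMP libraries, 30.4%, 29.3% and 32.0% in preNeu, and 22.1%, 21.3% and 20.4% in matNeu. *Rela* made up 28.2% to 34.2% in GMP, 48.2% to 49.8% in preNeu and 44.6% to 50.8% in matNeu. The leading subunit transcript was thus *Nfkb1* in every GMP library and *Rela* in every other library. *Nfkb2* went from 5.45% to 6.97% in GMP over 7.71% to 10.1% in preNeu to 12.8% to 14.0% in matNeu, and *Relb* from 1.07% to 1.82% over 3.98% to 4.54% to 6.90% to 10.7%. *Rel* made up 3.43% to 6.72%, 6.64% to 7.89% and 8.07% to 9.82%. The ratio of *Rela* to *Nfkb1* TPM was 0.476 to 0.626 in GMP, 1.54 to 1.7 in preNeu and 2.02 to 2.38 in matNeu. These ranges of *Nfkb1*, *Nfkb2* and *Relb* and of the ratio did not overlap between any cell types. The shares were not tested.

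**Figure D2:**
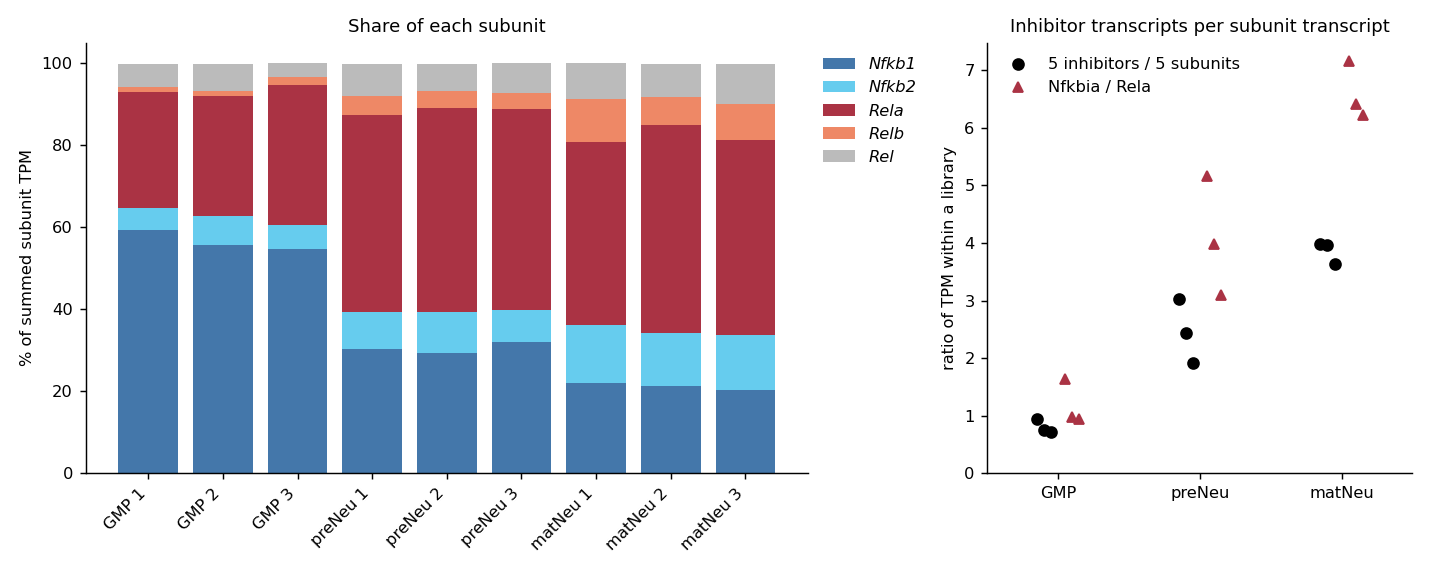
Left, share of each subunit in the summed TPM of the 5 subunits (stacked bars, 1 bar per library). Right, ratio of the summed TPM of 5 inhibitors to that of 5 subunits (circles) and ratio of *Nfkbia* to *Rela* TPM (triangles) in each library; the first ratio was 0.716 to 0.941 in GMP, 1.92 to 3.02 in preNeu and 3.64 to 3.98 in matNeu.

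*Nfkbia*, the gene of IκBα (ENSMUSG00000021025, chr12:55489410-55492647, minus strand), was the most abundant member in both later stages and rose at both steps. It was measured at 91.5, 56.3 and 72.5 TPM in GMP, 337, 328 and 259 in preNeu, and 923, 820 and 962 in matNeu. No cell types overlapped. The log2 change was 2.07 ± 0.17 from GMP to preNeu (limma, adjusted p = 4.62e-06) and 1.55 ± 0.17 from preNeu to matNeu (adjusted p = 1.75e-05). By mean TPM, *Nfkbia* ranked 2878 among the genes of the table in GMP, 391 in preNeu and 178 in matNeu.

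*Nfkbib*, the gene of IκBβ (ENSMUSG00000030595, chr7:28758251-28767512, minus strand), was the inhibitor that went down in TPM. Its levels were 73.7, 68.9 and 67.8 TPM in GMP, 43.9, 38.3 and 27.4 in preNeu, and 33.3, 35.6 and 30.6 in matNeu, with GMP above both other stages and these overlapping. The log2 change from GMP to preNeu was -0.95 ± 0.18 (limma, adjusted p = 0.000989), and under upper-quartile scaling it was -0.47 and no longer passed the test (adjusted p = 0.0727). From GMP to matNeu it was -1.06 ± 0.18 (adjusted p = 0.000245), which is -0.14 relative to the median of all genes, and -0.24 (adjusted p = 0.287) and -0.16 (adjusted p = 0.462) under the scalings. *Nfkbie*, the gene of IκBε (ENSMUSG00000023947, chr17:45555703-45563169, plus strand), was measured at 10.5, 11 and 11.7 TPM in GMP, 12.3, 17.4 and 16.5 in preNeu, and 23.8, 20.0 and 22.3 in matNeu. The 3 cell types did not overlap. The change from GMP to preNeu of 0.43 ± 0.19 did not pass the test (limma, adjusted p = 0.0788), and the rise of 0.50 ± 0.19 from preNeu to matNeu passed it narrowly (adjusted p = 0.0440). That call was lost when any 1 library other than preNeu replicate 2 or matNeu replicate 2 was left out (adjusted p = 0.0529 to 0.147), and in a fit of the compared cell types alone (adjusted p = 0.0582). Without preNeu replicate 1 the first step passed instead (adjusted p = 0.0315), as it did under both scalings (0.00259 and 0.0019), whereas matNeu against GMP gave 0.93 ± 0.19 (adjusted p = 0.00113).

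Within the 3 cytoplasmic IκB genes, *Nfkbia* and *Nfkbib* were about level in GMP and *Nfkbia* was far in front later. *Nfkbia* made up 41.3% to 52.1% of their summed TPM in GMP, 85.5% to 85.7% in preNeu and 93.7% to 94.8% in matNeu, and *Nfkbib* 42.0% to 50.6%, 9.04% to 11.2% and 3.02% to 4.06%. *Nfkbie* made up 5.95% to 8.07%, 3.12% to 5.46% and 2.20% to 2.43%. The ratio of *Nfkbia* to *Rela* TPM was 0.946 to 1.64 in GMP, 3.10 to 5.17 in preNeu and 6.23 to 7.16 in matNeu. The summed level of the 5 inhibitors was 148 to 186 TPM in GMP, 326 to 408 in preNeu and 999 to 1184 in matNeu, while that of the subunits was 197 to 224, 135 to 170 and 251 to 325. In GMP there were thus fewer transcripts of the 5 inhibitor genes than of the subunit genes, and in every preNeu and matNeu library more. The 5 include the nuclear cofactor gene *Nfkbiz*. The same held for the 3 cytoplasmic IκB genes alone, at 136 to 176, 303 to 393 and 876 to 1015 TPM.

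*Nfkbiz*, the gene of the nuclear protein IκBζ (ENSMUSG00000035356, chr16:55811375-55838899, minus strand), had the widest range of all members on the log2 scale. It was measured at 4.92, 5.17 and 4.21 TPM in GMP, 5.28, 9.29 and 9.40 in preNeu, and 150, 112 and 152 in matNeu. The matNeu libraries stood far above the others, which lay close together without overlap. The log2 change from preNeu to matNeu was 3.98 ± 0.24 (limma, adjusted p = 1.36e-07), at or above that of 98.4% of tested genes. From GMP to preNeu it was 0.61 ± 0.24 with an adjusted p of 0.0479 (limma), and the call was lost when any 1 library other than preNeu replicate 1 was left out (adjusted p = 0.0513 to 0.148). The ratio of mean TPM was 17.3 between matNeu and preNeu.

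*Tnfaip3*, the gene of A20 (ENSMUSG00000019850, chr10:19000910-19015657, minus strand), rose at the first step. It was measured at 5.20, 6.74 and 4.39 TPM in GMP, 10.4, 9.09 and 13.6 in preNeu, and 18.6, 11.3 and 16.8 in matNeu. GMP lay below both later stages, which overlapped. The log2 change was 0.90 ± 0.26 from GMP to preNeu (limma, adjusted p = 0.0131) and 0.45 ± 0.26 from preNeu to matNeu (adjusted p = 0.157), and the scalings gave 0.84 (adjusted p = 0.0125) and 0.86 (adjusted p = 0.0117) for the second step. Across the family, the first step from GMP to preNeu was led by *Nfkbia* and the second by *Nfkbiz*, as the plot of changes with their intervals shows.

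**Figure D3:**
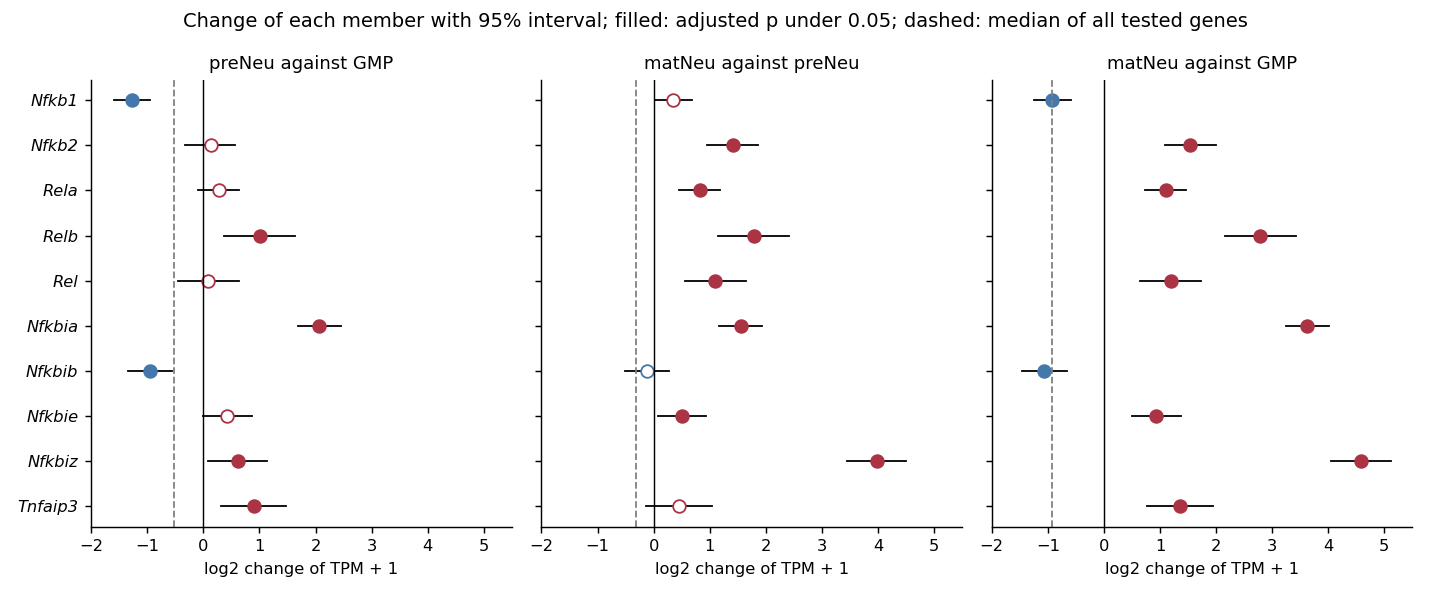
Log2 change of TPM + 1 (horizontal axes) of each member in the 3 comparisons, with 95% intervals; filled points passed the test at an adjusted p of 0.05 and dashed lines are the medians of all 13061 tested genes (-0.52, -0.32 and -0.92). In matNeu against GMP, *Nfkb1* and *Nfkbib* sat at that median, and their calls were lost under both scalings, while the other 8 members sat to the right of 0.

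Genes with a pattern most like a member over the 9 libraries were found by Pearson correlation of log2(TPM + 1) with 13060 tested genes. These are descriptions, since the 9 libraries fall into 3 cell types. For *Nfkbiz* they were *Arhgap45* (r = 0.9973), *Txnip* (0.9972), *Sirpb1c* (0.9969), *Hcar2* (0.9967) and *Itgax* (0.9966). For *Rela* they were *Haus8* (r = 0.9840), *Eif2ak3* (0.9836), *Slc10a2* (0.9812), *Fam122a* (0.9808) and *Ugcg* (0.9808).

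The genes upstream of the subunits were described next. Of 34 receptors and adaptors, 31 were tested, and 19 were higher and 6 lower in matNeu than in GMP, with a median log2 change of 1.23, beside 22.8% and 54.1% of all tested genes and their median of -0.92. Median-ratio scaling gave 24 higher and 2 lower with a median of 2.06, beside 33.7% and 42.5% of all tested genes. Upper-quartile scaling gave 24 and 1 with a median of 2.14, beside 34.8% and 41.5%. *Il1r2*, the decoy receptor for IL-1, was measured at 1.50, 4.80 and 0 TPM in GMP, 124, 164 and 165 in preNeu, and 2774, 2474 and 2774 in matNeu. It rose by 5.95 ± 0.47 and then by 4.15 ± 0.47 on the log2 scale (limma, adjusted p = 3.26e-06 and 2e-05). *Tnfrsf1a*, the main TNF receptor, and *Myd88*, the adaptor of Toll-like and IL-1 receptors, stood at 155 ± 8.16 and 84.2 ± 5.6 TPM in GMP (SD, n = 3), 163 ± 19.7 and 117 ± 10.6 in preNeu, and 661 ± 44.1 and 445 ± 25 in matNeu. The Toll-like receptor genes *Tlr2* and *Tlr6* averaged 17.3 ± 2.16 and 8.32 ± 4.86 TPM in GMP, 6.83 ± 2.1 and 3.99 ± 3.19 in preNeu, and 315 ± 39.5 and 84.7 ± 4.29 in matNeu, and both rose from preNeu to matNeu (limma, log2 change 5.36, adjusted p = 6.48e-09 and 4.31, adjusted p = 1.61e-05).

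The 12 kinases did not move one way. In matNeu against GMP, 5 were higher and 5 lower with a median log2 change of -0.39, beside 22.8% and 54.1% of all tested genes. The median turned to 0.43 and 0.50 under median-ratio and upper-quartile scaling, with 7 higher and 2 lower. All tested genes stood at 33.7% and 42.5% with median ratios, and at 34.8% and 41.5% with the upper quartile. *Ikbke*, which encodes the IKK-related kinase IKKε, was measured at 61.6, 86.4 and 75.1 TPM in GMP, 53.7, 82.1 and 91.2 in preNeu, and 0.952, 3.68 and 2.1 in matNeu, and fell by 4.62 on the log2 scale from preNeu to matNeu (limma, adjusted p = 3.67e-07). *Map3k3* and *Map3k8*, the latter encoding the kinase TPL2 that p105 binds, averaged 27.5 ± 9.41 and 5.58 ± 0.357 TPM in GMP, 34.3 ± 7.88 and 23.8 ± 8.93 in preNeu, and 219 ± 19.9 and 49.6 ± 3.23 in matNeu. *Ikbkb*, the catalytic IκB kinase of the classical pathway, averaged 119 ± 6.07, 60.5 ± 5.93 and 64.1 ± 14.2 TPM, and its log2 change of -0.90 from GMP to matNeu (limma, adjusted p = 0.000425) was -0.07 and 0.01 under the scalings. *Tbk1*, the other IKK-related kinase, gave -0.44 (limma, adjusted p = 0.0306) and turned to 0.39 (adjusted p = 0.0260) and 0.47 (adjusted p = 0.0107).

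Of 25 other inhibitors and regulators, 24 were tested, and 10 were higher and 6 lower in matNeu than in GMP, with a median log2 change of 0.26, beside 22.8% and 54.1% of all tested genes. Median-ratio scaling gave 17 higher and 4 lower with a median of 1.07, beside 33.7% and 42.5% of all tested genes. Upper-quartile scaling gave 18 and 4 with a median of 1.14, beside 34.8% and 41.5%. *Bcl3*, a nuclear IκB protein that binds p50 and p52, was measured at 4.99, 4.11 and 5.77 TPM in GMP, 7.95, 11.1 and 7.52 in preNeu, and 56.6, 69.3 and 86.7 in matNeu. Its log2 change from preNeu to matNeu was 2.86 ± 0.23 (limma, adjusted p = 1.39e-06). *Rnf11*, a partner of A20, averaged 5.19 ± 1.80, 8.06 ± 1.71 and 73.3 ± 8.63 TPM in the order of differentiation. *Pdlim2*, which encodes a ubiquitin ligase for p65, averaged 21.4 ± 6.01, 118 ± 20.1 and 192 ± 11.4 TPM. *Skp1a*, part of the ubiquitin ligase that takes IκBα to degradation, averaged 242 ± 26.3, 105 ± 22.9 and 51.4 ± 6.05 TPM, and *Rbck1*, of the linear ubiquitin ligase, 221 ± 8.40, 99.2 ± 11.3 and 97.4 ± 8.04 TPM. The log2 change from GMP to matNeu was -2.21 for *Skp1a* (limma, adjusted p = 4.78e-07), and -1.39 and -1.31 under the scalings. For *Rbck1* it was -1.17 (adjusted p = 6.46e-06), and shrank to -0.35 (adjusted p = 0.0143) and -0.27 (adjusted p = 0.0465). *Tax1bp1*, an adaptor of A20, averaged 285 ± 3.31, 189 ± 3.34 and 254 ± 11.5 TPM, and its log2 change from GMP to matNeu of -0.17 (limma, adjusted p = 0.119) turned to 0.66 and 0.74 under the scalings.

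Of 38 known NF-κB target genes outside the 10 members, 28 passed the filter and were tested. In matNeu against GMP, 23 were higher and 3 lower, beside 22.8% and 54.1% of all tested genes. The median log2 change of the 28 was 2.95, beside -0.92 for all tested genes. Both scalings gave 24 higher and 1 lower. All tested genes stood at 33.7% and 42.5% with median ratios, and at 34.8% and 41.5% with the upper quartile. From GMP to preNeu, 10 were higher and 5 lower with a median of 0.30, beside 14.7% and 44.3% of all tested genes. From preNeu to matNeu, 17 were higher and 3 lower with a median of 1.88, beside 22.9% and 39.8%. This list was chosen with earlier results of these data known, so the counts are descriptions. *Il1b*, the gene of the cytokine IL-1β, was measured at 0.577, 1.10 and 2.36 TPM in GMP, 0.119, 0.526 and 0.471 in preNeu, and 1908, 1342 and 2236 in matNeu. *Il1rn*, the gene of the IL-1 receptor antagonist, averaged 2.39 ± 1.71, 41.9 ± 2.87 and 1064 ± 10.2 TPM in the same order. *Ptgs2*, the gene of cyclooxygenase-2, was listed at 0, 0 and 0.0784 TPM in GMP and at 1.96, 0 and 0 in preNeu, and was measured at 423, 238 and 222 in matNeu. Both *Il1b* and *Ptgs2* passed the filter only through matNeu, so their calls as higher there were close to fixed in advance. They are among the targets counted as higher, and the targets not named here were not checked for this. *Fth1*, the ferritin heavy chain, averaged 779 ± 46.2, 331 ± 38.0 and 5831 ± 558 TPM. The order was different for *Lcn2*, the iron-binding granule protein lipocalin-2, with 11.5 ± 3.12, 8892 ± 1908 and 2611 ± 272 TPM.

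CHD4 ChIP-seq was then read at the members, to ask where the remodeller was bound in GMPs and whether peaks were also listed without *Gfi1*. The authors' peak caller gave each peak a fold enrichment over background. With 1 library per genotype there is no replicate check and no test, and read depth is unknown. Within 10 kb of a member, the WT list held 41 of its 35790 peaks, at 5 of the 10 genes, while 41.8% of 13048 tested genes had at least 1 such peak. *Nfkb1* had 21 peaks, *Nfkbiz* and *Tnfaip3* 6 each, and *Rel* and *Nfkbia* 4 each. *Nfkb2*, *Rela*, *Relb*, *Nfkbib* and *Nfkbie* had none. Relative to length, the windows of the members held 9.21 peaks per 100 kb, and those of all tested genes 2.75. By their summits, 18 of the 41 lay in introns, 9 in the promoter of an annotated transcript (2 kb before to 500 bp after its start), 4 in exons, 7 downstream and 3 upstream of the gene.

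The strongest CHD4 peak at a member lay in *Tnfaip3* at chr10:19008913-19009834, 6.33 kb into the gene and at the promoter of an internal transcript, with a fold enrichment of 25.1. The next was in an intron of *Nfkb1* at chr3:135686378-135686915, 4.83 kb from its annotated start site (TSS), with 24.7, followed by another intronic *Nfkb1* peak at chr3:135596721-135597422, 94.4 kb from the TSS, with 21.4. At *Nfkbia* the strongest peak, chr12:55488506-55489230 with a fold enrichment of 21.2, lay just past the 3′ end of the gene, 3.82 kb from the TSS. At *Rel* the peaks with 13.0 and 12.6 lay in introns 8.09 and 1.12 kb from the TSS. At *Nfkbiz* the highest value was 12.2, in an exon 26.9 kb from the TSS. Peaks over the TSS were lower, with 4.96 at *Nfkb1*, 8.85 at *Nfkbia* and 4.34 at *Tnfaip3*.

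**Figure D4:**
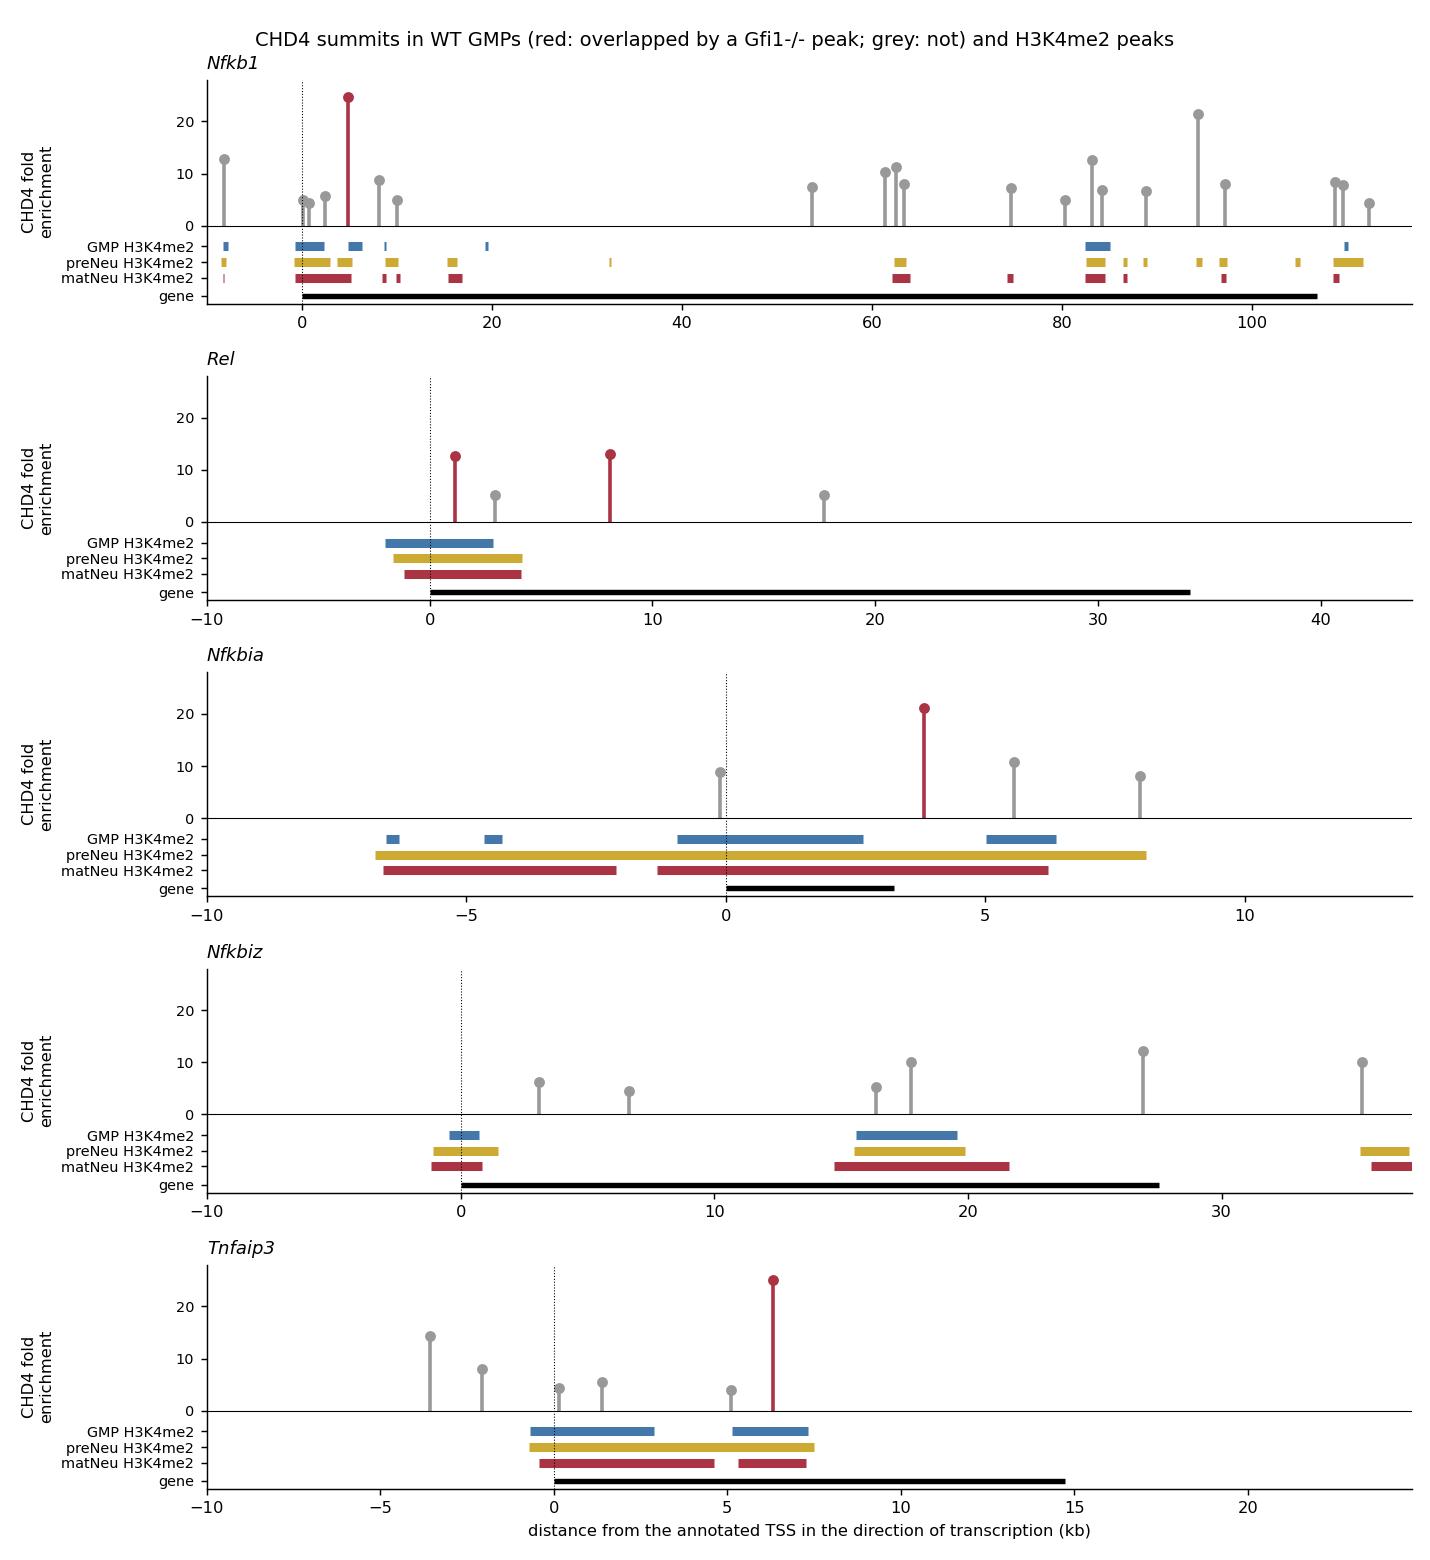
CHD4 summits in WT GMPs (stems, fold enrichment on the vertical axis, red where a peak of *Gfi1*-/- GMPs overlapped and grey where none did) and H3K4me2 peaks of GMP, preNeu and matNeu cells (bars under 0) at the 5 members with CHD4 peaks, by distance in kb from the annotated TSS along transcription, drawn to 10 kb on either side of the gene (black bar). The 5 red stems are at *Nfkb1*, *Rel* (2), *Nfkbia* and *Tnfaip3*; a single preNeu H3K4me2 peak spanned *Nfkbia*.

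In *Gfi1*-/- GMPs, 5 peaks lay at 4 members (*Rel* 2, *Nfkb1*, *Nfkbia* and *Tnfaip3* 1 each), and 13.8% of tested genes had at least 1. Each of these 5 met a separate WT peak. Of the 41 member peaks in WT GMPs, 12.2% (95% Wilson interval 5.32% to 25.5%) were therefore listed without *Gfi1* too, beside 18.5% of the whole WT list, a value inside that interval. All 6 peaks at *Nfkbiz* and 20 of the 21 at *Nfkb1* were not overlapped. The overlapped peaks were the strong ones. When the WT list was split by fold enrichment into 10 equal groups, 0 of 30 member peaks in the lowest 7 groups were overlapped, where 0.643% to 8.63% of all peaks of a group were, 2 of 7 in the eighth, where 20.7% of all peaks were, and 3 of 4 in the top group, where 92.9% were. The exception in the top group was the *Nfkb1* peak 94.4 kb from the TSS. In the *Gfi1*-/- list the fold enrichments were 5.55 at *Nfkb1*, 6.66 and 5.07 at *Rel*, 7.90 at *Nfkbia* and 5.41 at *Tnfaip3*, and summits at *Nfkbia* lay 1 bp apart in the 2 lists. The *Gfi1*-/- list was shorter throughout, with 7316 peaks, and a shorter list from 1 library cannot be told apart from lower enrichment. The paper counted far fewer CHD4 peaks in WT GMPs than the WT list used here holds. Without *Gfi1*, it reported loss of CHD4 at most of the sites shared by GFI1 and CHD4, and little change at sites that CHD4 occupied alone. The member peaks were not divided by GFI1 binding here. The shares given here are therefore not comparable with its counts.

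The κB consensus was also searched under the CHD4 summits. Within 200 bp around the summit, 4 of the 41 member peaks held a κB match (9.76%, 95% Wilson interval 3.86% to 22.5%), beside 1.94% of 35728 summits in all and 1.61% of windows moved by 1000 bp. They were 3 of the 4 peaks at *Nfkbia* and the TSS peak of *Tnfaip3*. The TSS peaks held matches seen in the promoter windows, since the windows overlap. The strongest *Nfkbia* site, which was listed in both genotypes, is shown on the plus strand with its match in capitals (chr12:55488724-55488923), together with the weaker site further downstream (chr12:55484571-55484770).
Nfkbia, 3.82 kb from the TSS: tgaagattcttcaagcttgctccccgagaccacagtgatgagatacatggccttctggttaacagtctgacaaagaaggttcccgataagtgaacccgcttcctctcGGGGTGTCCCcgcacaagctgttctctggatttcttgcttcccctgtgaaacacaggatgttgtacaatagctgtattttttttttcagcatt
Nfkbia, 7.98 kb from the TSS: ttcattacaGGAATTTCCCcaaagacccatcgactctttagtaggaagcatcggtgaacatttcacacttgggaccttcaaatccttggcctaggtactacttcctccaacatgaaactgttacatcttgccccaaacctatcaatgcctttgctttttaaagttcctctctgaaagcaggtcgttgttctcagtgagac

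H3K4me2 peaks were listed at every member in every cell type. Each of the 10 genes had at least 1 H3K4me2 peak within 10 kb in GMP, preNeu and matNeu, as did 90.6%, 92.8% and 92.2% of tested genes. A peak covered the TSS of all 10 members in each list, beside 68.3%, 80.1% and 78.5% of tested genes. The lists differ in length (37643, 49578 and 44094 peaks covering 49.8, 97.9 and 80.4 Mb), with 1 library each, so cover is read beside that of all genes. The median share of a member's window covered by peaks was 10.4% in GMP, 21.0% in preNeu and 17.1% in matNeu, and that over all tested genes was 6.78%, 12.2% and 9.52%.

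As a share of the window, which grows with the gene, *Nfkbia* had the widest cover in preNeu and matNeu, and *Nfkbie* in GMP. In kb covered, *Nfkb1*, the longest gene, led in each list, with 8.6 kb in GMP, 17.8 in preNeu and 14.8 in matNeu. The window of *Nfkbia* was covered to 23.7% in GMP by 4 peaks, to 63.9% in preNeu by a single peak of 14.9 kb (chr12:55484552-55499408), and to 51.7% in matNeu by 2 peaks. The preNeu peak took in all 4 CHD4 sites of WT GMPs. *Nfkbiz* went from 10.9% in GMP to 18.7% in preNeu and 22.2% in matNeu, with the TSS peak and a peak inside the gene in each list, and the inner peak was 4 kb wide in GMP, 4.39 kb in preNeu and 6.90 kb in matNeu. *Nfkbiz* and *Nfkbib* were the members whose cover was highest in matNeu, and *Nfkbib*, at 8.00%, 11.7% and 13.0%, had lower TPM there than in GMP, a call lost under both scalings. *Rela* had 9.81%, 22.4% and 18.6%, with a peak at the TSS and another past the 3′ end in each list. *Nfkb1*, whose TPM was highest in GMP, had 6.77%, 14.1% and 11.7%. *Rel* had 1 peak in each list, over the TSS, with cover of 8.98%, 10.7% and 9.65%. The other members had 9.72% (*Relb*) to 27.1% (*Nfkbie*) in GMP, 19.6% (*Relb*) to 30.1% (*Nfkbie*) in preNeu and 12.7% (*Nfkb2*) to 22.8% (*Nfkbie*) in matNeu.

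**Figure D5:**
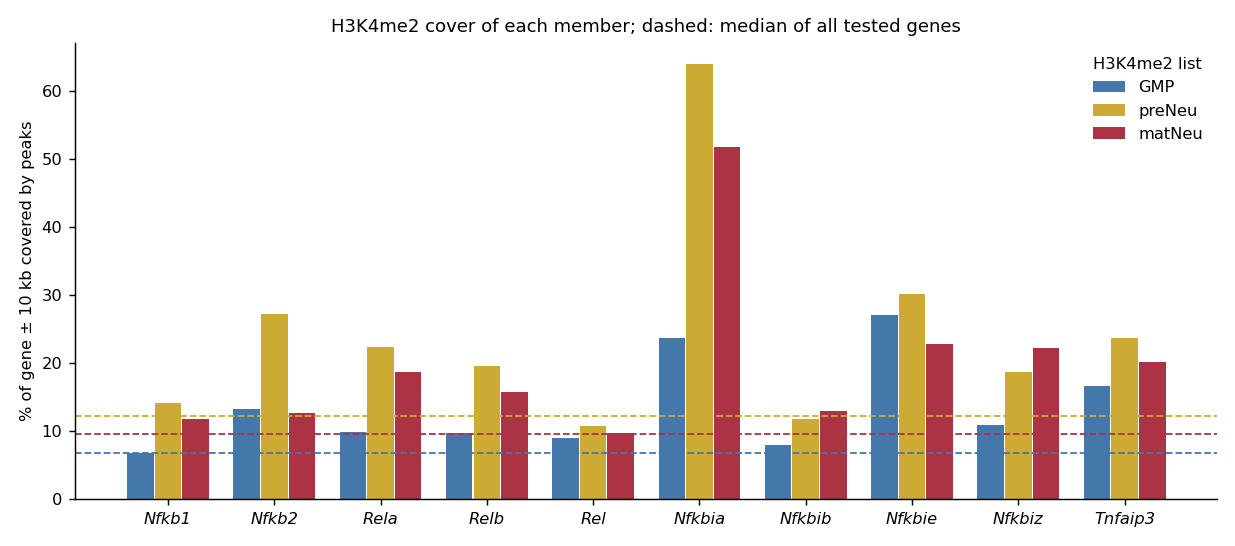
Share of each member's gene and 10 kb on either side covered by H3K4me2 peaks (bars from 0, in percent) in the GMP, preNeu and matNeu lists, 1 library each; dashed lines are the medians of all tested genes in the same list (6.78%, 12.2% and 9.52%). *Nfkbia* reached 63.9% in preNeu, and *Nfkb1* in GMP was at 6.77%.

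Of the 41 CHD4 peaks of WT GMPs at the members, 16 were overlapped by an H3K4me2 peak of GMPs (39.0%, 95% Wilson interval 25.7% to 54.3%), 28 by one of preNeu (68.3%, 53.0% to 80.4%) and 24 by one of matNeu (58.5%, 43.4% to 72.2%). Over all CHD4 peaks these shares were 37.8%, 59.5% and 52.5%, each inside the interval of the members. At *Nfkb1*, 6, 15 and 13 of the 21 sites were overlapped, and at *Nfkbia* 2, 4 and 3 of the 4.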

How the data were processed

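RNA-seq was deposited as 1 table of TPM per gene and library for GMP, preNeu and matNeu cells (3 libraries each). The paper's methods describe TruSeq Stranded libraries, alignment with Tophat to mm10 and counting with HTSeq, while the submitters' processing notes list FastQC 0.11.5, MultiQC 1.6, Trimmomatic 0.36, BWA 0.7.17, MACS2 2.1.0 and kallisto 0.44.0 without roles, so how TPM was made is not settled by the sources used here. TPM keeps no depth, and no count test was run. Peak lists were deposited by the authors, 1 per library, with a linear fold enrichment (a ratio) and a −log10 q-value for each peak. Both served only within a list. Lists for CHD4 and H3K4me2 fitted GRCm38 (0 peaks past a chromosome end). The H3K4me3, GFI1 and ATAC-seq lists were not used here.

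TPM were tested with limma 3.58.1 (R 4.3.3) on log2(TPM + 1) over all 9 libraries, without covariates beside the cell type, with limma's variance trend, on genes of at least 1 TPM in at least 3 libraries, and Benjamini-Hochberg adjustment at 0.05. Peaks were assigned to genes within 10 kb with GENCODE M21, and overlaps needed 1 bp. Sequences were read with samtools 1.23.1, tables with Python 3.11.15, pandas 2.3.3, numpy 2.4.6 and scipy 1.17.1, and plots with matplotlib 3.10.9. Wilson intervals (95%) cover counting error only. Those for CHD4 peaks treat the peaks as independent, although 21 of the 41 at the members lay at *Nfkb1*.

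The members and the gene lists were chosen with earlier results of these data known. Named genes were all members, from each list the 3 with the highest mean TPM in a cell type and the 3 with the largest called change between matNeu and GMP, and the 5 genes most correlated with *Nfkbiz*, the member of widest range on the log2 scale, and with *Rela*. The alternatives were a pseudocount of 0.1, no filter, 2 scalings, the compared cell types alone, a replicate block, no trend, leaving out each library, a −log10 q of at least 5, a window of 5 kb, the gene and promoter only, and a stricter overlap of peaks. Of the table's sample columns, 0 were left unused. The result of 1 marker gene is not reported here.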

Additional observations from a re-analysis of the deposited data

How the results depend on the processing

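Across 480 recalculated changes of single members under the alternatives, 436 kept direction and side of the threshold, 26 lost the call, 13 gained it and 5 turned. None of the turned values passed the test in either setting. In preNeu against GMP they were *Nfkb2*, from -0.000927 (without preNeu replicate 2) to 0.22 over the left-out libraries, and *Rel*, from -0.12 (without GMP replicate 3) to 0.23. In matNeu against preNeu it was *Nfkbib*, from -0.30 to 0.03 (without preNeu replicate 1), at 0.28 with median-ratio scaling and at 0.30 with upper-quartile scaling. Leaving out 1 library in turn left 5 to 7 members called in preNeu against GMP, 6 to 8 in matNeu against preNeu and 10 to 10 in matNeu against GMP. Median-ratio scaling gave 9, 9 and 8 members called in these comparisons, and upper-quartile scaling 8, 9 and 8. Whether the replicate numbers pair the samples is not known, and 3 libraries per cell type cannot settle it. Same-numbered libraries of different cell types correlated at -0.0394 to 0.123 in their deviations, over 0.1 in 1 of 9 pairs. Between preNeu and matNeu, same-numbered pairs gave 0.0186, 0.0681 and 0.123, and the other pairs -0.128 to 0.0706. With the replicate number as a block, 5, 6 and 10 members were called instead of 6, 7 and 10, the lost calls being *Nfkbiz* in preNeu against GMP (adjusted p = 0.0699) and *Nfkbie* in matNeu against preNeu (adjusted p = 0.0667). With a −log10 q of at least 5, 5 members instead of 10 had an H3K4me2 peak in GMP. No other count of members with peaks moved, apart from *Gfi1*-/- CHD4 peaks at 3 instead of 4 members with the gene and promoter only, and the share of CHD4 peaks at the members also listed without *Gfi1* ran from 12.2% to 13.2%. The cause of these differences was not tested. The depth of the libraries is unknown.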
